A study of Mus musculus with 8 samples.

Results

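The phagocyte NADPH oxidase was described through 5 of its genes, Cybb, Cyba, Ncf1, Ncf4 and Rac2, in mouse Ly-6C-high monocytes of blood and spleen. The members were taken as all array probes whose gene name in the scanner files is one of these 5 symbols, which gave 8 probes of the 41174 in the authors' table, and 5 of its 27962 gene names. Cybb, Ncf1 and Rac2 had 2 probes each and Cyba and Ncf4 had 1 each. All 8 passed the filter on low values, along with 25463 other probes. The choice rested on gene names and used no measured value.

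Healthy, untreated C57BL/6 females aged 8 to 12 weeks and fed chow served as the source of both groups, Ly-6C-high monocytes of blood (4 samples) and of spleen (4 samples), from 4 mice in all. Each sample held 1000 sorted cells with high CD11b and Ly-6C and little of the surface markers of T, B and NK cells, neutrophils, mature macrophages and dendritic cells, and 5 ng of RNA was amplified and read on a 1-colour array. No label says that a sample number stands for a mouse, so the tests are unpaired and their p-values rest on sample-to-sample spread alone, part of which may be technical.

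The phagocyte oxidase carries electrons from NADPH across a membrane to oxygen and so makes superoxide, the starting point of the oxidants used to kill ingested microbes. Its membrane part is a flavocytochrome made of the products of Cybb and Cyba, and it stays idle until cytosolic proteins, those encoded by Ncf1 and Ncf4 among them, and a Rac GTPase join it. Loss of Cybb, Cyba, Ncf1 or Ncf4 causes chronic granulomatous disease in people. Neutrophils, monocytes and macrophages are the cells best known for this enzyme.

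The array reads a transcript through 60-base probes, and the probe decides which stretch of the transcript is counted. The probes of Cybb probe 1 and Cyba are shown because they span more genome than their own length on mouse build mm7, so they cross an intron and read spliced RNA. Cybb probe 1 covers chrX:7875782-7877709 on the minus strand, 1928 bases of genome. The Cyba probe covers chr8:121068998-121069266 on the minus strand, 269 bases of genome. Both are printed in full from the scanner files, 5′ to 3′, with no part singled out.
Cybb probe 1: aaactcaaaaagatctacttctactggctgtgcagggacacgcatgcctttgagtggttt
Cyba: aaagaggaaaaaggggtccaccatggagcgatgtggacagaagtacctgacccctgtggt

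The other 6 probes lie in unbroken stretches of 60 bases. Cybb probe 2 covers chrX:7870338-7870397 on the minus strand, 5384 bases from probe 1. The Ncf1 probes cover chr5:133470708-133470767 (probe 1) and chr5:133470038-133470097 (probe 2) on the minus strand, with 610 bases between them. Ncf4 is read at chr15:78345425-78345484 on the plus strand. The Rac2 probes are near neighbours on the same chromosome, with 33 bases between chr15:78644067-78644126 (probe 1) and chr15:78643974-78644033 (probe 2), both on the minus strand. Exon and untranslated region annotation was not used here, and the brighter probe of each gene is called probe 1.

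Values are log2 levels of the authors' value table, and differences are spleen minus blood. For samples 1 to 3 of blood, table column and scanner file do not hold the same array values, with rank correlations of 0.842, 0.852 and 0.872 while those of the other 5 samples rounded to 1. No label settles which of these is right, so where the 5 matching arrays or all scanner files turn a member's direction, that value is given too. The 5 matching arrays are blood 4 and spleen 1 to spleen 4. Differences within them therefore rest on blood 4 alone for blood and are not a replicated check of direction. In the 5 matching arrays the scanner software marked all 8 probes as well above background, and no member probe was saturated on any array. Probes differ in how brightly they read the same amount of RNA, so no order of abundance is drawn from the levels of different probes.

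No member differed between the tissues beyond the spread between samples. In these bulk samples fewer cells of a type and less RNA per cell cannot be told apart. In limma's moderated test with Benjamini-Hochberg adjustment, 0 of 8 member probes passed an adjusted p of 0.05, beside 0% of all 25471 tested probes. At an unadjusted p under 0.05 there were again 0 member probes, where 5.57% of all probes passed, and the smallest unadjusted p among the members was 0.155 (limma). In the table the blood and spleen values overlapped for all 8 probes, and they were apart for 3.25% of all probes. In the scanner files those of Ncf4 were apart, and the share of all probes apart in those files was not counted. In spleen 5 member probes were higher and 3 lower, around a median of 0.07, and 48.2% of all probes were higher, around a median of -0.01. For 6 of the 8 member probes the 95% interval from the table values excluded a change of 2-fold or more either way. That held for 51.9% of all probes and for 75.1% of those at least as bright as the dimmest member probe. With all scanner files the Cybb probes were 0.67 ± 0.36 and 0.62 ± 0.36 (SE) higher in spleen, and Ncf4 0.60 ± 0.30. The count of 6 was not repeated there and excludes no 2-fold change in those files.

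**Figure D1:**
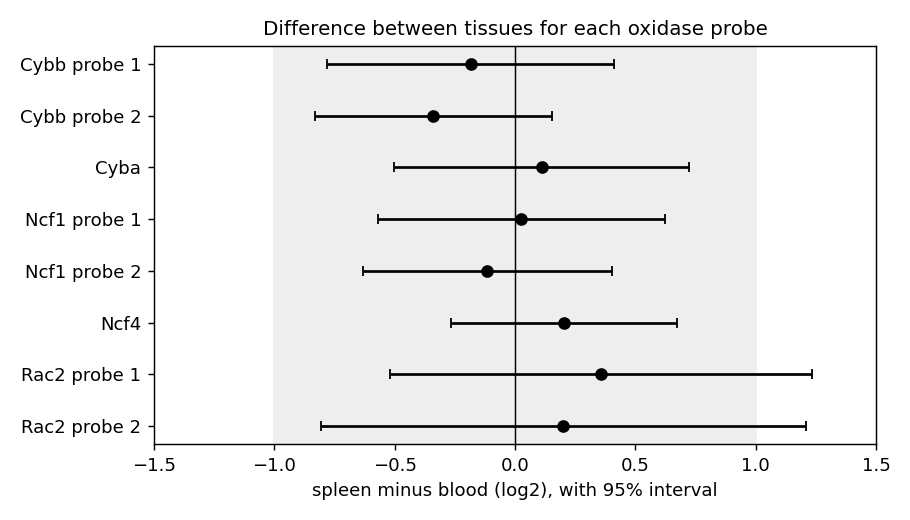
Spleen minus blood on the log2 scale for each of the 8 member probes, with 95% intervals from limma; the grey band is 2-fold in either direction. In these table values all 8 intervals cross 0, and only those of the 2 Rac2 probes reach beyond the band, at 1.23 and 1.21. Intervals from the scanner files are not shown.

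Cybb encodes the electron-carrying subunit, gp91phox or Nox2. Its probe 1 read 15.74, 15.51 and 15.29 in blood 1 to blood 3 and 15.28, 15.34 and 15.37 in spleen 1 to spleen 3; the cells of blood 4 and spleen 4 are empty in the table. The spleen values lay within 0.1 of each other and blood 1 was the highest of the 6. Blood averaged 15.51 ± 0.22 (SD, n = 3), spleen 15.33 ± 0.05 (SD, n = 3), a difference of -0.18 ± 0.26 (SE; limma, adjusted p = 1).

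Cybb probe 2 had a value in every sample. It read 14.50, 14.16, 13.95 and 13.92 in blood 1 to blood 4, and 13.86, 13.80, 13.93 and 13.58 in spleen 1 to spleen 4. Blood 1 was again the highest and spleen 4 the lowest, and only spleen 3, at 13.93, lay above the lowest blood value. The difference of -0.34 ± 0.22 (SE) had a 95% interval from -0.83 to 0.15, so a fall in spleen to 0.562 of the blood level and a rise to 1.11 times it both lie inside (limma, adjusted p = 1). Spleen was lower in all 4 comparisons of same-numbered samples, by as little as 0.01 for number 3 (-0.0149). Without blood 1 the difference was -0.22.

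The 2 Cybb probes followed each other over the 6 samples that have both values (Pearson r = 0.965, Spearman rho = 0.714). With all 8 scanner files the direction of Cybb turned: probe 1 was 0.67 ± 0.36 (SE) and probe 2 0.62 ± 0.36 higher in spleen (limma, adjusted p = 0.671 and 0.685). In those files the blood 1 to blood 3 arrays read 4.21, 4.14 and 3.68 for probe 2 on a scale set to each array's 75th percentile, and blood 4 and the spleen arrays read 4.54 to 5.24. With the 5 matching scanner files probe 2 differed by -0.03.

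Cyba encodes p22phox, the partner that holds the Cybb product stable in the membrane and offers the docking site for the Ncf1 product. It read 10.65, 10.73, 11.38 and 11.16 in blood 1 to blood 4 and 10.61, 11.52, 11.18 and 11.03 in spleen 1 to spleen 4. Low values stood in blood 1, blood 2 and spleen 1, so both tissues covered nearly the same range. The difference was 0.11 ± 0.27 (SE), with a 95% interval from -0.50 to 0.72 (limma, adjusted p = 1). Its direction turned without spleen 2 (-0.04), in the 5 matching arrays (-0.07) and with all scanner files (-0.05).

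Ncf1 encodes p47phox, the organizer that is phosphorylated on activation and brings the cytosolic proteins to the membrane. Probe 1 read 11.55, 11.35 and 11.57 in blood 1, blood 2 and blood 4, and 11.30, 11.58 and 11.66 in spleen 2, spleen 3 and spleen 4, with blood 3 and spleen 1 empty. All 6 values lay within 0.365 of each other, and the difference was 0.03 ± 0.26 (SE). Probe 2 read 10.57, 10.86, 11.29 and 11.24 in blood and 10.74, 10.85, 10.99 and 10.92 in spleen, samples 1 to 4 in order. Blood held both the lowest and the highest of these, and the difference was -0.11 ± 0.23 (SE). The adjusted p was 1 for both probes (limma). Over the 6 samples with both values the Ncf1 probes had a Pearson r of 0.213 and a Spearman rho of 0.6. Ncf1 probe 2 was 0.37 higher in spleen with all scanner files and lower by 0.36 (-0.36) in the 5 matching arrays.

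Ncf4 encodes p40phox, which binds a phosphoinositide of the phagosome membrane. It read 13.54, 13.38, 13.50 and 13.43 in blood and 14.02, 13.50, 13.49 and 13.67 in spleen. Blood values were within 0.16 of each other, and spleen 1 was the highest of the 8. The means were 13.46 ± 0.07 (SD, n = 4) and 13.67 ± 0.25 (SD, n = 4), a difference of 0.20 ± 0.21 (SE; limma, adjusted p = 1). Without spleen 1 it was 0.09. Ncf4 was higher in spleen in every setting run, by up to 0.66, and no setting called it.

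Rac2 encodes the GTPase of blood cells that switches the assembled oxidase on, and its product also drives the actin changes of migration. Probe 1 read 10.66, 12.42, 12.26 and 11.47 in blood 1 to blood 4 and 12.52, 11.73, 12.10 and 11.89 in spleen 1 to spleen 4. Probe 2 read 9.85, 12.27, 11.07 and 10.66 in blood and 11.42, 10.80, 11.27 and 11.16 in spleen. By both probes blood 1 was the lowest of all samples and blood 2 the highest of blood in the table. In the scanner files, where these columns hold other values, blood 1 was instead the highest of blood, at 3.13 and 2.56 above the array's 75th percentile.

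In the table Rac2 varied most among the members. Its SD in blood was 0.81 (n = 4) by probe 1 and 1.01 (n = 4) by probe 2, against 0.34 and 0.26 in spleen. In the scanner files the blood SD of Rac2 was 0.28 and 0.30, below that of Cyba (0.58), Ncf1 probe 2 (0.84) and the Cybb probes (0.51 and 0.49), so the order of spread in blood rests on the table's blood 1 to blood 3. The SD within tissues was 0.62 for probe 1 and 0.74 for probe 2, above that of 91.9% and 96.5% of the probes at least as bright as the dimmest member; for the other 6 member probes this share was 6.7% to 56.5%. The differences were 0.36 ± 0.39 (SE) and 0.20 ± 0.45, with 95% intervals from -0.52 to 1.23 and from -0.81 to 1.21, so a 2-fold rise in spleen lies inside both (limma, adjusted p = 1 for both). Without blood 1 they were 0.01 and -0.17, and without blood 2 they were 0.60 and 0.64. The probes followed each other over the 8 samples (Pearson r = 0.889, Spearman rho = 0.905). Same-numbered samples of number 1 differed by 1.86 and 1.56 and those of number 2 by -0.68 and -1.47.

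**Figure D2:**
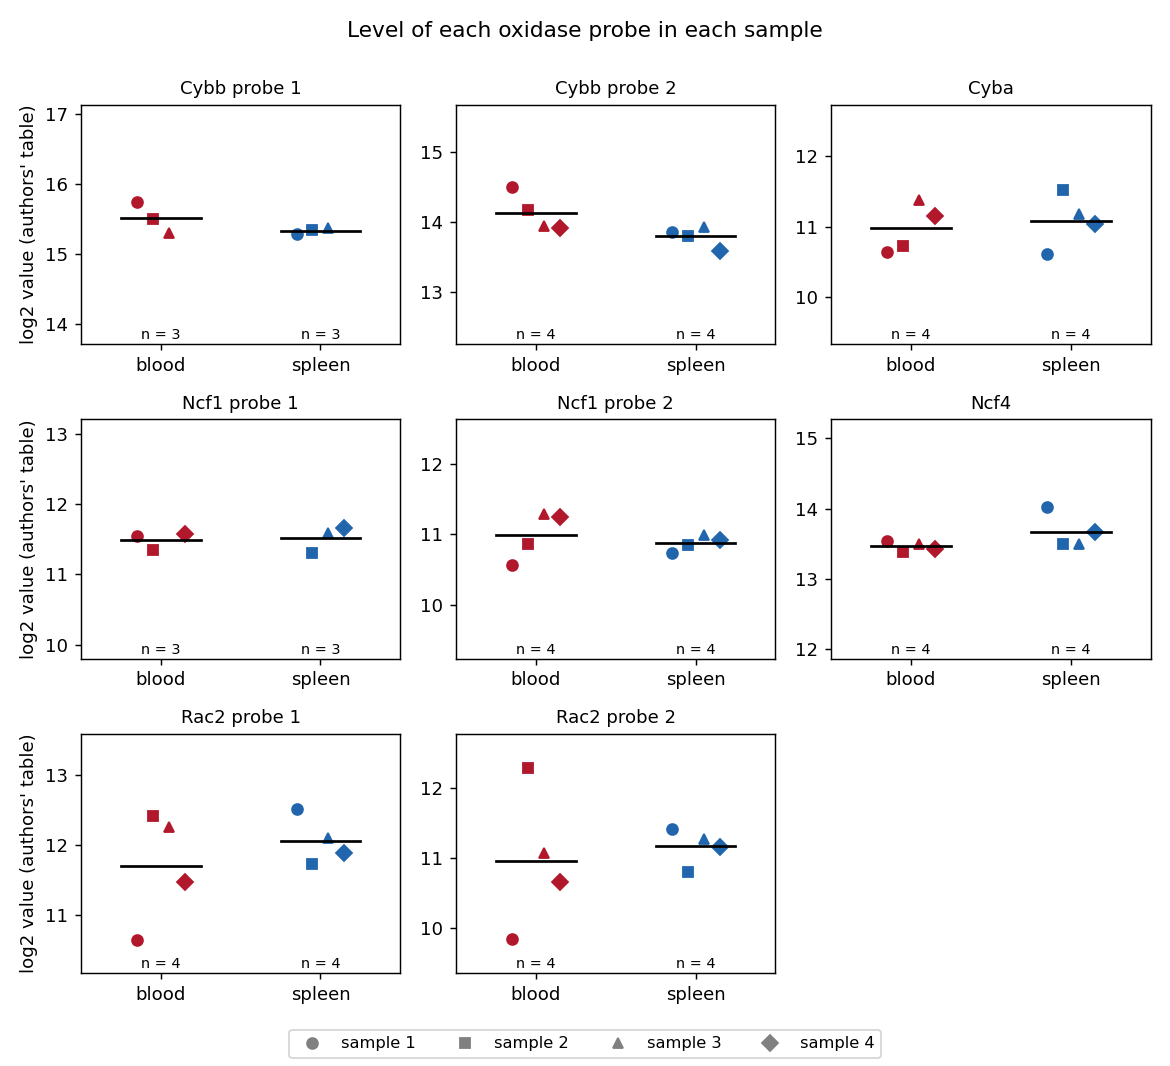
Log2 value of every member probe in each blood (red) and spleen (blue) sample; marker shapes give the sample number, black bars the mean, n the number of values, and every panel spans the same number of log2 units. Blood and spleen overlap in each panel, and in these table values blood is spread widest for the Rac2 probes.

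How the members varied together depended on which deposit was read. For each gene its brightest probe with 8 values was used. Of the 10 pairs of members 4 had a Pearson r above 0 over the 8 table columns, with a median of -0.35, and 7 had one over the 8 scanner files, with a median of 0.24. In the table Cyba and Ncf1 were the most alike (r = 0.646, Spearman rho = 0.595) and Cybb and Rac2 the least (r = -0.515, rho = -0.048). In the scanner files the same pairs had r of -0.500 and 0.277, so both signs turned. These correlations describe 8 arrays of 2 tissues from 4 mice that share their normalization, and no p is given.

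The genes with the pattern most like each member were sought among 16385 genes with 8 values by Pearson r over the 8 table columns, those of blood 1 to blood 3 included. They were Htt, the huntingtin gene, for Cybb (r = 0.975, Spearman rho = 0.976), 2210409B22Rik for Cyba (r = 0.962, rho = 0.976) and Wac for Ncf1 (r = 0.967, rho = 0.976). AK083252 led for Ncf4 (r = 0.983, rho = 0.929) and Nphs1, the nephrin gene, for Rac2 (r = 0.939, rho = 0.929). Without the 2 samples farthest from the member's median, r was 0.959, 0.921, 0.983, 0.884 and 0.793 in that order. The next in line were LOC621290 and AK030475 for Cybb, Rps19bp1 and Fcho2 for Cyba, Cbr4 and NAP114245-1 for Ncf1, E430022E14Rik and AK080694 for Ncf4, and Urod and 4930579G18Rik for Rac2, with r from 0.936 to 0.974. Without the same 2 samples their r ran from 0.733 (E430022E14Rik) to 0.972 (Cbr4). All of these genes were picked for the highest r among 16385 over only 8 arrays, which by itself favours high values. Shared regulation was not tested.

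A further 55 genes of the oxidase's surroundings were listed in 7 groups, of which 53 were on the array and 48 were tested. None passed the adjusted threshold in limma's test, and 2 (4.17%) had an unadjusted p under 0.05, where 5.57% of all probes did. In spleen 25 were higher and 23 lower, around a median of 0.02. With all scanner files the sign was the opposite one for several of the genes named below: Mpo -0.51, Hvcn1 -1.62, Rac1 0.47, Prdx1 0.27, Irf8 0.18, Irf1 0.15, Elf1 0.07 and Nox4 -0.15.

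Of the other parts of the phagocyte oxidase, 2 of 3 tested genes were higher in spleen and 1 lower. Rac1, the widely expressed relative of Rac2, averaged 11.23 ± 0.22 (SD, n = 4) in blood, and in spleen 11.17 ± 0.49 (SD, n = 4). Rap1a, a small GTPase found with the flavocytochrome, was 10.61 to 10.83 in blood and 10.87 to 11.12 in spleen. Its values did not overlap, yet the difference of 0.27 ± 0.19 (SE) had an adjusted p of 1 (limma). Cybc1, the chaperone that helps the flavocytochrome mature, differed by 0.14 ± 0.34 (SE).

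The NADPH oxidases of other tissues were at or near the background level of 6.8, the lowest 0.1 step from which at least 95% of probes were well above background in each matching array. Nox1 and Nox3, the catalytic subunits of colon and inner ear, lay below it on all 8 arrays. Nox4 averaged 6.83 in blood and 6.86 in spleen, and Duox1 7.09 and 7.04. Of the 5 tested genes 2 were higher and 3 lower. Noxo1, an organizer related to the Ncf1 product, had the largest difference, -0.93 ± 0.48 (SE), with 4 arrays below background and a spleen mean of 6.67, also below it (limma, adjusted p = 0.945). Blood 1, at 9.24, carried it: the means without that sample differed by -0.39. The largest in the other direction was Duox2, at 0.10 ± 0.25.

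Rac regulators comprised exchange factors, inhibitors and GTPase-activating proteins, and 4 of 10 tested genes were higher and 6 lower. Arhgdia, which keeps Rac in the cytosol, differed by 0.29 ± 0.31 (SE), and Vav2, an exchange factor, by -0.55 ± 0.39. Among kinases and lipid enzymes that activate the oxidase, 7 of 12 were higher and 5 lower. Pik3c3, the kinase whose lipid the Ncf4 product binds, was 8.75, 7.51, 8.57 and 8.34 in blood and 9.51, 9.17, 9.02 and 8.56 in spleen. That is a difference of 0.77 ± 0.32 (SE), with an unadjusted p of 0.0381 and an adjusted p of 0.85 (limma), and spleen 4 lay among the blood values. Akt1 differed most in the other direction, by -0.44 ± 0.35.

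The charge that the oxidase moves is balanced by the proton channel Hvcn1, which differed by 0.41 ± 0.50 (SE), and by the chloride-proton exchanger Clcn3, at -0.39 ± 0.49. Of 12 tested enzymes that use or remove superoxide and peroxide, 8 were higher in spleen and 4 lower. Mpo, the myeloperoxidase of neutrophil and monocyte granules, read 8.09, 7.93, 7.80 and 8.00 in blood and 8.37, 8.37, 9.03 and 9.53 in spleen. Its values did not overlap, and the difference of 0.87 ± 0.29 (SE) had an unadjusted p of 0.0143 and an adjusted p of 0.743 (limma). Prdx1, a peroxiredoxin, differed most in the other direction, by -0.35 ± 0.23.

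**Figure D3:**
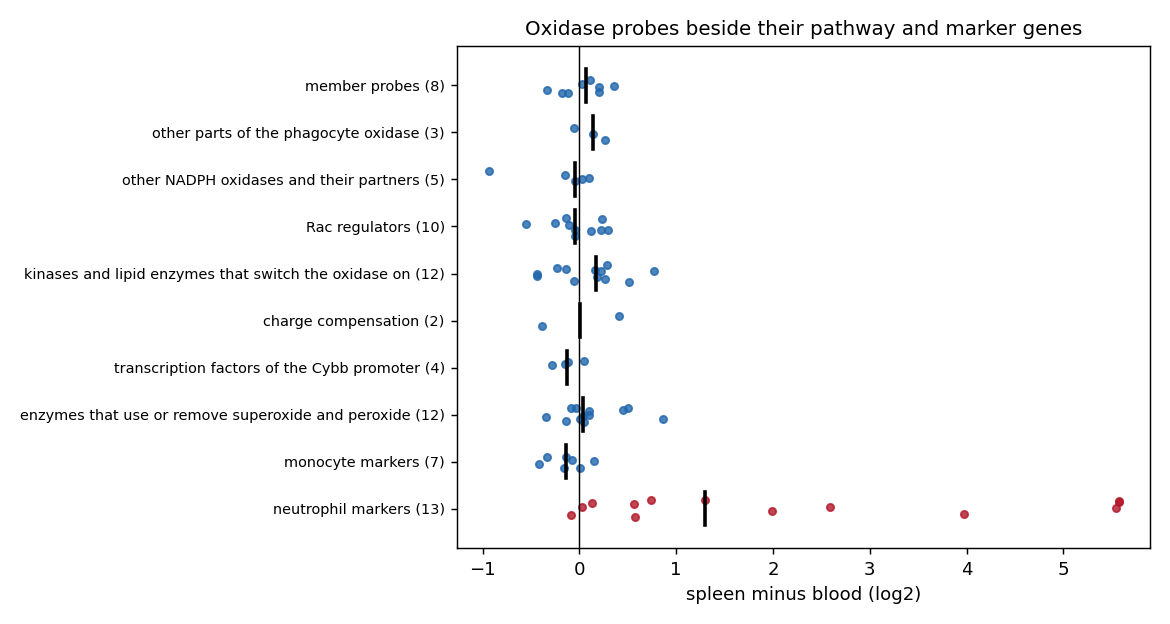
Spleen minus blood on the log2 scale for the 8 member probes and for the tested genes of each list (number in brackets), 1 point per probe or gene, vertical jitter without meaning, black bars the medians. The member probes span -0.34 to 0.36, while neutrophil markers reach above 5.

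Transcription of Cybb in myeloid cells depends on PU.1 and interferon regulatory factors. Of 4 tested factor genes 1 was higher in spleen and 3 lower. Spi1, the gene of PU.1, averaged 13.41 ± 0.20 (SD, n = 4) in blood, and in spleen 13.46 ± 0.22 (SD, n = 4). Irf8 read 13.52, 12.33, 11.82 and 12.20 in blood and 12.39, 12.53, 11.75 and 12.61 in spleen, a difference of -0.15 ± 0.38 (SE). Without blood 1 it was 0.21. Irf1 differed by -0.29 ± 0.28 (SE) with 3 values per tissue and Elf1 by -0.12 ± 0.31.

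The promoters of Cybb and Ncf1 are shown because the 250 bases before their annotated starts hold a match to the IRF element. Sequences are from RefSeq on build GRCm38.p6, whose table held 3 of the 5 genes, Cybb, Cyba and Ncf1. Windows of 300 bases, 250 before and 50 after the start, were searched on both strands for GAGGAA (the PU.1 core), CCAAT and the IRF element, and none of the matches found here overlap. Cybb has an IRF element match at -29 and a CCAAT at -56 on the printed strand. On the other strand it has IRF element matches at -168 and -124 and a PU.1 core at +10 to +15. Ncf1 has an IRF element match at -82, and the Cyba window has none of the 3 motifs. Over all 32851 windows 3.4% hold the IRF element, 37.4% CCAAT and 28.3% the PU.1 core. Capitals mark the matches before the start in the Cybb promoter, chrX:9469325-9469574, and the Ncf1 promoter, chr5:134229626-134229875, both on the minus strand. The PU.1 core of Cybb lies after the start and so outside the printed 250 bases.
Cybb promoter: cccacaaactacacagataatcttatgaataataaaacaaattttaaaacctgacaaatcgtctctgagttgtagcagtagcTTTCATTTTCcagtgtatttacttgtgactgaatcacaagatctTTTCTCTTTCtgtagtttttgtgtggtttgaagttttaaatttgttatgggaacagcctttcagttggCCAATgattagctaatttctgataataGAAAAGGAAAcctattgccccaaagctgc
Ncf1 promoter: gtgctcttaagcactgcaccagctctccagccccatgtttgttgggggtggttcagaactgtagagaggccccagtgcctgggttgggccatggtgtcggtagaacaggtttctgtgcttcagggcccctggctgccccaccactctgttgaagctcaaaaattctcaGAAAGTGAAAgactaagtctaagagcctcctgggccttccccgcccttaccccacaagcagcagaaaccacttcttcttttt

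The labelled cell type was checked by its markers. All 7 tested monocyte markers were at or above background wherever they had a value; 2 were higher in spleen and 5 lower, 0 at an unadjusted p under 0.05 (limma). Itgam, the gene of CD11b, averaged 12.11 in both tissues, and Csf1r, the receptor of the monocyte growth factor, 13.14 and 13.30. Ccr2, the chemokine receptor of Ly-6C-high monocytes, was lower in spleen without overlap, 14.10 ± 0.26 (SD, n = 4) against 13.68 ± 0.23 (SD, n = 3), with an adjusted p of 0.991 (limma), and 1.40 higher there with all scanner files. The summed level of 6 monocyte markers with 8 values (log2 of the sum) was 14.86 to 15.17 in blood and 14.57 to 15.33 in spleen. These sums are of table values. With all scanner files every listed monocyte marker was higher in spleen, by 0.47 (Csf1r) to 2.83 (Ly6c1).

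Neutrophils carry the same oxidase, and the summed level of 13 of 15 listed neutrophil markers was 12.00 to 12.89 in blood and 15.47 to 16.83 in spleen. The ranges do not overlap. Camp, S100a8 and Ltf add most to the spleen sums, while Csf3r, Mmp8 and Prtn3 differed by 0.03, -0.08 and 0.13. Of the 13 tested markers 12 were higher in spleen, 7 at an unadjusted p under 0.05 and 0 past the adjusted threshold (limma), with a median difference of 1.30 beside 0.07 for the member probes. The part of neutrophil RNA in the oxidase levels was not tested. Platelet markers were 10.58 to 12.55 in blood and 10.18 to 11.34 in spleen, and T cell markers 10.47 to 10.82 and 10.53 to 11.78. B cell markers were 9.44 to 9.67 and 9.20 to 10.44, and NK cell markers 8.90 to 9.39 and 9.03 to 9.76. Klrb1c and Gzma were below background on every array where they had a value. With all scanner files every listed B cell and NK cell marker was lower in spleen. The differences ran from -1.03 (Pax5) to -4.64 (Ms4a1) and from -1.12 (Eomes) to -5.36 (Gzma). Whether these shifts bear on the oxidase values of those files was not tested. Of 5 red pulp macrophage markers 4 were higher in spleen, 3 of them without overlap and at an unadjusted p under 0.05, and 0 passed the adjusted threshold (limma), with a median of 1.48. Vcam1 was 2.31 ± 0.37 (SE), Slc40a1, the iron exporter, 2.17 ± 0.35 and Spic, a factor of red pulp macrophages, 1.48 ± 0.43 higher in spleen (limma, adjusted p = 0.162, 0.198 and 0.687), while Adgre1 averaged 13.10 in both tissues. The sum of 4 of these markers, to which the bright Adgre1 and Hmox1 add most, was 13.33 to 13.99 in blood and 13.54 to 14.05 in spleen. The part of macrophage RNA in the oxidase levels was not tested.

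Blood 4 and spleen 4 shared a slide. Spleen 4 minus blood 4 was -0.34 for Cybb probe 2, -0.13 for Cyba, 0.10 and -0.32 for Ncf1 probes 1 and 2, 0.24 for Ncf4 and 0.41 and 0.50 for the Rac2 probes. Within this slide the signs were those of the whole comparison for all of these but Cyba. Both samples are part of that comparison, so the agreement is not independent of it. In the scanner files blood 1 shared a slide with spleen 3, and blood 2 and blood 3 with spleen 1. Cybb probe 2 was higher in spleen on both of those slides. It read 4.21 in blood 1 against 5.24 in spleen 3, and 4.14 and 3.68 in blood 2 and blood 3 against 4.785 in spleen 1.

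**Figure D4:**
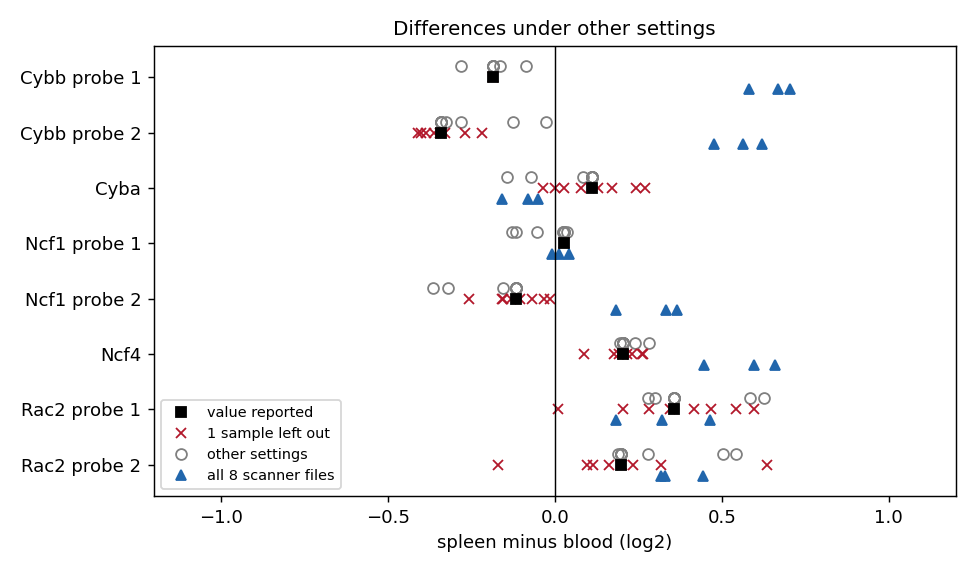
Spleen minus blood on the log2 scale for each member probe under the settings run: the reported value (square), with 1 sample left out (crosses), other table settings and the 5 matching scanner files (circles), and all 8 scanner files (triangles). The triangles of Cybb lie at 0.48 to 0.71, on the other side of 0 from the reported values of -0.18 and -0.34, while those of Ncf4 and Rac2 stay above 0.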

How the data were processed

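Log2 values came from the authors' deposited series table, 1 column per sample, with a median of 7.31 in each; its scale was read by setting each column against the scanner file. The scanner files hold Cy3 intensity values made with Agilent Feature Extraction 9.5.1.1, per the file headers; the submitters' processing notes name limma, with no version. The main test was limma 3.58.1 in R 4.3.3 (lmFit and eBayes, tissue as the only term) on 25471 probes with a log2 value of at least 6.8 on at least 4 of 8 arrays and 3 values per tissue, with Benjamini-Hochberg adjustment over all of them and a threshold of 0.05. The fit was tested on simulated data. Every member probe is named; from each of the 7 pathway lists, those with the largest difference each way, Rac1 and Spi1 are named by rule, and Cybc1, Nox1, Nox3, Nox4, Duox1, Irf8, Elf1 and all single marker genes were added after their values were seen. Lists use the brightest probe per gene, and 1 listed gene is not reported here. The members and lists were chosen with earlier results of these data known. The number of arrays limits the precision.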

Additional observations from a re-analysis of the deposited data

How the results depend on the processing

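No member probe passed the threshold in any of 21 alternatives, and Ncf4 and Rac2 probe 1 kept their direction in all that gave a value. Over the whole table the count past the threshold, 0 as reported, was 7 with the mean over the probes of a gene, 1 with the replicate block, 9 with a robust variance that follows intensity, 7 with a random block of same-numbered samples, 5 with all scanner files at the 75th percentile, 1 with the slide as a block there, 5 with normexp, and 0 to 3 with a sample left out (2 without blood 1, 3 without blood 2, 2 without spleen 1 and 1 without spleen 2). With scanner files at the 75th percentile, with the slide block and with normexp, in that order, Cybb probe 1 was 0.67, 0.58 and 0.71, Cybb probe 2 0.62, 0.56 and 0.48, Ncf1 probe 2 0.37, 0.18 and 0.33, and Cyba -0.051, -0.16 and -0.079. Cyba was also -0.071 in the 5 matching arrays and -0.14 in their scanner files. Ncf1 probe 1 was -0.12 with the mean over probes, -0.053 and -0.13 in the 5 matching arrays and scanner files, and -0.0083 with normexp. With a sample left out Cyba ran from -0.035 (without spleen 2) to 0.27 and Rac2 probe 2 from -0.17 (without blood 1) to 0.64. The cause was not tested. The 2 settings on the matching scanner files and on the slide block were chosen after seeing the data, and a slide block on the table could not be run, as the slides of its blood 1 to blood 3 are unknown. To look for pairing, each probe's mean within a tissue was first subtracted from its values. On what remained, same-numbered samples of blood and spleen correlated at 0.07 to 0.12 and others at -0.10 to 0.03. All 8 correlated best with their own number, a hint from the data and not the design. Blood 4 and spleen 4 also shared a slide. The replicate block called no member.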
